A study of Homo sapiens with 2 samples.

Results

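Molecular chaperones help other proteins to fold, and the mRNA levels of the heat shock protein, DNAJ and CCT chaperones were compared between Ca9-22 cells carrying a DLEU1 lentiviral vector and Ca9-22 cells carrying a control vector. The genes were taken by name, and the choice was made with earlier results of these data known. They were the HSPA, HSPB, HSPD, HSPE, HSPH, HSP90, DNAJA, DNAJB and DNAJC genes, the genes named CCT with a digit, and TCP1, without antisense and pseudogene names. The array carried 83 such genes among 43317 gene names. Ca9-22 is an established human oral squamous cell carcinoma (OSCC) line and DLEU1 is a long noncoding RNA. The DLEU1 vector held the full-length cDNA, which had been cloned from another OSCC line, and the control vector was empty. Cells of both groups were infected, kept under blasticidin (6 mg/ml as labelled) for 2 weeks, and used for total RNA, so infection and selection were shared by both. Whether the cells were a clone or a pool is not given in the sources used here. Each group had 1 Agilent 1-colour array, without replicates. No test, p-value or replicate SD could therefore be given, and the small number of arrays limits how precise any value can be.

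Chaperones of the HSP70 family (HSPA) bind short hydrophobic stretches of unfolded proteins in a cycle driven by ATP. Proteins with a J domain (DNAJA, DNAJB and DNAJC) deliver clients and trigger ATP hydrolysis, and the HSP110 proteins (HSPH1, HSPA4 and HSPA4L) exchange the nucleotide. HSP90 proteins finish the folding of kinases and steroid receptors, HSPD1 and HSPE1 form the folding chamber of mitochondria, the CCT ring folds actin and tubulin, and small heat shock proteins (HSPB) hold unfolded proteins without using ATP. Cancer cells, squamous carcinomas among them, commonly contain abundant HSP90 and HSP70. Heat shock factor 1 (HSF1) drives many of these genes through heat shock elements in their promoters, whereas chaperones of the endoplasmic reticulum (ER) answer to the unfolded protein response.

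All levels below are log2 signals of a probe relative to the 75th percentile of the same array, so that 0 is the signal at that percentile. Differences are the DLEU1 vector array minus the control vector array on the log2 scale, and a gene was called changed at 2-fold or more. Each gene was read by its brightest probe detected on both arrays, where detected means well above the local background. DLEU1 was examined first as the gene that the vector carries. Its signal went from 3.17 on the control vector array to 5.91 on the DLEU1 vector array, which is 2.74 or 6.67-fold higher. The other DLEU1 probes detected on both arrays were dimmer and gave 0.85 (1.81-fold) and 0.54 (1.46-fold), and the mean of the probes was 1.38. The spread of technical origin was 0.0800 (SD of the log2 difference between replicated spots, 282 probes), and different probes of one chaperone gene differed by 0.285 (pooled SD of the log2 difference, 22 genes). Neither value contains the variation between cultures. All 10 squamous epithelial markers were detected on both arrays. With the DLEU1 vector 7 of them were at least 2-fold higher, from CDH1 (1.04) to KRT17 (3.09), beside 9.18% of all gene names. TP63 (0.96) was below 2-fold, and EPCAM (-0.78) and ITGA6 (-0.23) were negative. Of 13 fibroblast, endothelial and leukocyte markers, 6 were detected on neither array (COL1A2, COL3A1, DCN, PECAM1, CD3E and MS4A1) and LUM was detected with the DLEU1 vector only, whereas COL1A1 (3.99) and VWF (3.70) were higher and CD14 (-1.60) was lower. PTPRC (0.45), PDGFRB (-0.33) and CDH5 (-0.59) were below 2-fold. The part of these markers in the differences of the chaperones was not tested.

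Chaperone mRNAs were more often lower than higher with the DLEU1 vector. Of the 73 chaperone genes detected on both arrays, 19 (26.0%) were at least 2-fold lower, against 9.78% of all 20246 gene names detected on both arrays. Only 3 (4.11%) were at least 2-fold higher, namely HSPB1, DNAJB2 and HSPB2, against 9.18% of all gene names. A total of 49 differences were negative and 24 were positive, and 34 genes stayed within 1.5-fold. Negative differences made up 54.2% of all gene names and 64.0% of the brightest 25%. The median difference was -0.45 for the chaperones and -0.07 for all gene names. Bright probes were lower more often in general. Of the brightest 25% of gene names 11.6% were at least 2-fold lower and 5.61% were at least 2-fold higher, with a median of -0.24. These bright genes held 33 chaperone genes, of which 17 were lower and 1 was higher, and their median was -1.00. The scaling between the arrays set part of this count. With loess scaling, which removes any trend with brightness, 9 chaperone genes (12.3%) were lower against 8.16% of all gene names, and 3 were still higher. The threshold mattered as well. At 3-fold 2.74% of the chaperones were lower, against 3.31% of all gene names, and 4.11% were higher, against 3.82%. The median of the chaperones minus the median of all gene names was between -0.40 and -0.30 in the main setting and the 12 alternatives of scaling, background, filter and probe choice. In these bulk samples, fewer cells of a type and less RNA per cell cannot be told apart.

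**Figure D1:**
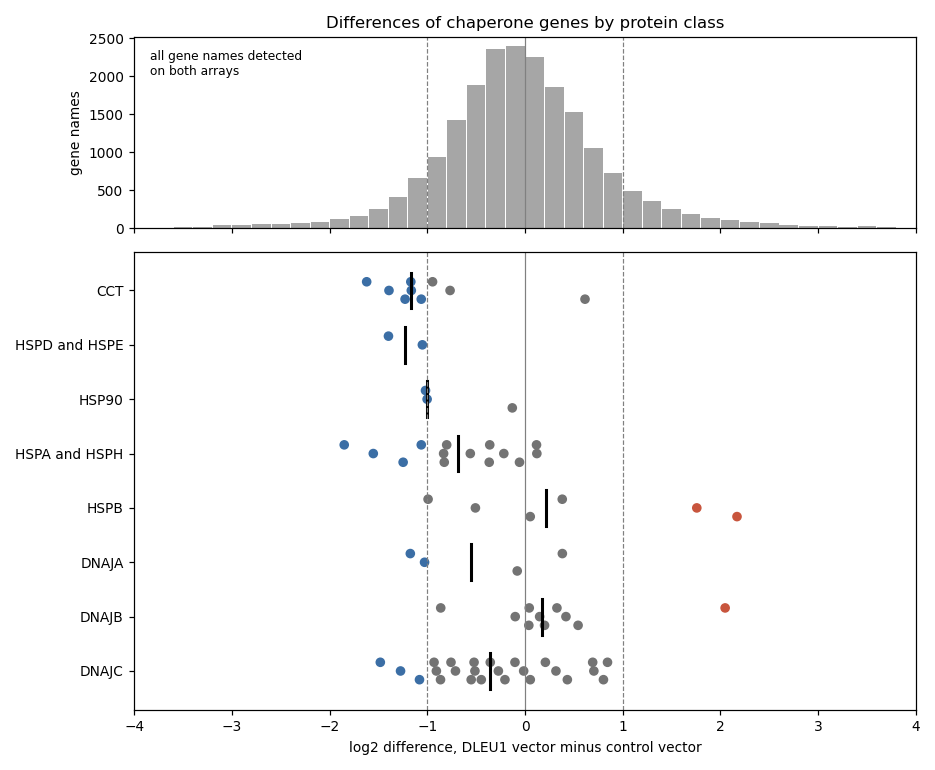
Log2 differences (DLEU1 vector minus control vector, x axis) of 73 chaperone genes by protein class under the histogram of 20246 gene names detected on both arrays. Each point is 1 gene, black bars are class medians, dashed lines mark 2-fold, and the 19 blue points lie at or below -1 and the 3 red points at or above 1.

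The classes differed in their values. At least 2-fold lower were 6 of 9 CCT genes, both HSPD and HSPE genes, 2 of 3 HSP90 genes, 4 of 14 HSPA and HSPH genes, 2 of 4 DNAJA genes and 3 of 25 DNAJC genes, and none of these classes had a gene that was 2-fold higher. Of all gene names 9.78% were at least 2-fold lower, and the DNAJC count was near that share. The class medians were -1.16 for CCT, -1.22 for HSPD and HSPE, -1.00 for HSP90, -0.68 for HSPA and HSPH, -0.55 for DNAJA and -0.36 for DNAJC. The DNAJB median was 0.17 (10 genes) and the HSPB median was 0.22 (6 genes). Both of these turned negative, to -0.22 and -0.18, when the spike-in probes were set equal on the arrays. That setting moved the median of all gene names by -0.40, whereas the other medians named here were negative under every scaling. The class counts depended on the scaling. With loess, 3 CCT genes, 1 HSPD or HSPE gene, 3 HSPA or HSPH genes, 2 DNAJC genes and 0 HSP90 or DNAJA genes were at least 2-fold lower. With the 75th percentile over detected probes the HSP90 count was 0 and the DNAJA count 1, and with quantiles both were 0.

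The CCT genes encode the subunits of the 8-membered ring that folds actin and tubulin, and 8 of the 9 genes detected on both arrays had a negative difference, 6 of them past 2-fold. Among all gene names 54.2% had a negative difference and 9.78% were at least 2-fold lower. TCP1, the first subunit of the ring, went from 3.90 with the control vector to 2.28 with the DLEU1 vector. Its difference was -1.62, or 3.08-fold lower, and its other probe gave -1.47. CCT7 went from 6.81 to 5.41 (-1.39), CCT6A from 8.34 to 7.11 (-1.23) and CCT5 from 0.20 to -0.97 (-1.17). The DLEU1 vector array was below the control vector array for each of these subunits, by more than 2-fold.

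CCT8 went from 6.62 to 5.45 (-1.16) and CCT3 from 7.51 to 6.45 (-1.06). The CCT3 probe lay in a strip of damaged spots on the DLEU1 vector array (columns 35 to 41, rows 1 to 130), where 33.6% of all spots that had signal in control cells were at least 2-fold lower, against 12.8% elsewhere. A dimmer CCT3 probe outside the strip was detected with the control vector only and was at least 2.05-fold lower with the DLEU1 vector. CCT4 (8.30 to 7.35) and CCT2 (7.21 to 6.44) were 1.93-fold and 1.70-fold lower and did not reach 2-fold, although a second CCT4 probe did (-1.12). The subunits of the ring thus spanned -1.62 to -0.77. CCT6B, a subunit known mainly from testis, was the only CCT gene detected on both arrays with a positive difference (0.22 to 0.83, a difference of 0.61). CCT8L2 was detected on neither array. Without the probes of the strip the CCT median was -1.18. With loess scaling 3 CCT genes remained past 2-fold, namely TCP1, CCT7 and CCT5, and the CCT median was -0.90. The dim CCT5 probe was at -0.83 with the normexp background correction.

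Replicated spots on the array showed how exactly such differences were read. CCT2, CCT7, DNAJA3, DNAJC9 and HSPA1A had probes with 7 to 10 usable spots on each array. The 9 spots of CCT7 ranged from 6.72 to 6.91 with a median of 6.80 on the control vector array and from 5.31 to 5.51 with a median of 5.42 on the DLEU1 vector array. The 8 spots of CCT2 ranged from 7.16 to 7.25 (median 7.20) and from 6.41 to 6.48 (median 6.45). For all 5 genes the spots of one array did not overlap those of the other. Such spots repeat the same RNA on the same array, so they show reading error and not the spread between cultures.

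**Figure D2:**
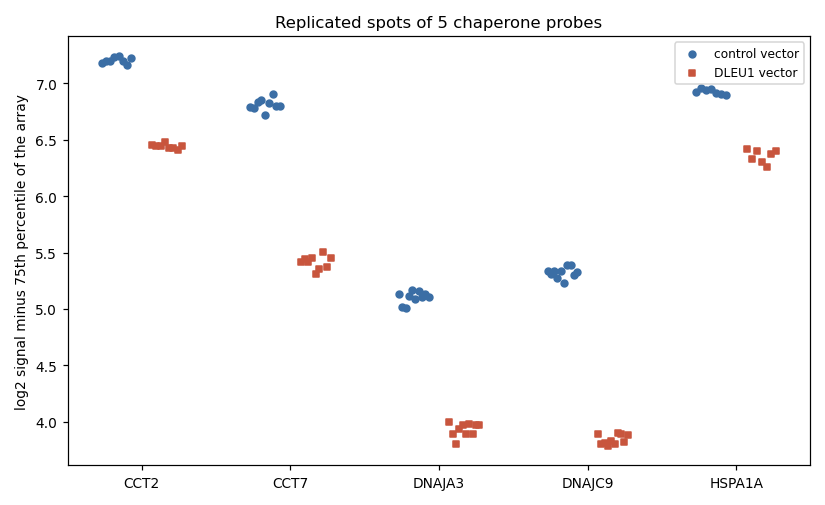
Log2 signal minus the 75th percentile of the array (y axis) for every usable spot of 5 chaperone probes that were printed several times, with circles for the control vector array and squares for the DLEU1 vector array. In each gene the squares lie below the circles without overlap, and the gap is widest for DNAJC9 and CCT7 and narrowest for HSPA1A and CCT2.

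HSPD1 (HSP60) and HSPE1 (HSP10) build the folding chamber of the mitochondrial matrix, and their genes lie head to head on chromosome 2. HSPD1 went from 8.82 to 7.43, a difference of -1.40. The spots around the HSPD1 probe were also lower, with a median difference of -0.52 over 49 neighbouring spots, against -0.25 to 0.23 around the probes of the other 21 changed chaperone genes. HSPE1 went from 8.58 to 7.53 (-1.05), and its second probe gave -0.85. HSPA9 (mortalin), the HSP70 of mitochondria, went from 4.30 to 3.05 (-1.25). DNAJA3 (Tid1), its J-domain partner, went from 5.10 to 3.93 (-1.17). Its 10 spots ranged from 5.01 to 5.17 on the control vector array and from 3.80 to 3.99 on the DLEU1 vector array. DNAJC19, which belongs to the import motor of the inner membrane, went from 4.55 to 3.64 (-0.91), and DNAJC11, an outer membrane protein, from 2.96 to 2.25 (-0.71, with -1.52 for a dimmer probe). Of the 6 mitochondrial chaperones detected on both arrays, all had a negative difference and 4 passed 2-fold, beside 54.2% and 9.78% of all gene names. The median of the 6 chaperones was -1.11. DNAJC15, another protein of the import motor, went the other way and was detected with the DLEU1 vector only, at least 1.44-fold higher.

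Of 12 mitochondrial folding genes that do not carry chaperone family names, all detected on both arrays, 3 were at least 2-fold lower, beside 9.78% of all gene names, and none was 2-fold higher. The median was -0.77. GRPEL1, the nucleotide exchange factor of HSPA9, differed by -1.42. TIMM44, which anchors HSPA9 to the import channel, differed by -1.37, and TRAP1, the HSP90 of mitochondria, by -1.27. Below 2-fold were the proteases CLPP (-0.90) and LONP1 (-0.88), GRPEL2 (-0.52), HSCB (-0.36), which serves iron-sulfur cluster assembly, and CLPX (-0.29). SPG7 was the only gene of this list with a positive value (0.13).

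The cytosolic HSP90 genes were both at the 2-fold line. HSP90AA1, the inducible form, went from 9.25 to 8.24 (-1.00), and its 2 dimmer probes gave -1.69 and -1.71. HSP90AB1, the constitutive form, went from 5.65 to 4.63 (-1.02) and its other probe gave -0.89. HSP90B1 (GRP94), the form of the ER, went from 7.69 to 7.56 (-0.13), with -0.36 on a dimmer probe. With loess scaling neither cytosolic gene was past 2-fold (-0.72 for HSP90AA1 and -0.77 for HSP90AB1). The sign of HSP90B1 turned under loess scaling (0.15).

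Among the HSP70 and HSP110 genes, HSPA14 had the lowest difference of all chaperone genes. HSPA14 works at the ribosome with DNAJC2 on emerging protein chains, and both partners were lower. HSPA14 went from 5.23 to 3.38 (-1.85), and DNAJC2 from 4.70 to 3.43 (-1.27). HSPA8, the constitutive HSC70, went from 6.82 to 5.27 (-1.55). HSPH1 (HSP105) went from 6.29 to 5.23 (-1.06, with -1.55 on a dimmer probe). HSPA4, also of the HSP110 group, went from 6.22 to 5.39 (-0.83, with -1.05 on a dimmer probe), and HSPA4L was at -0.06. Of 11 cytosolic HSP70 and HSP110 genes detected on both arrays, 10 had a negative difference and 3 passed 2-fold. Among all gene names 54.2% had a negative difference and 9.78% were at least 2-fold lower. The median of the 11 genes was -0.80.

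The stress-inducible HSP70 genes differed less. HSPA1A went from 6.92 to 6.36 (-0.56), and its 7 usable spots ranged from 6.90 to 6.96 on the control vector array and from 6.26 to 6.42 on the DLEU1 vector array. HSPA1B went from 5.79 to 5.43 (-0.36). Their coding sequences are nearly identical, and cross-hybridisation of the 2 probes with the other mRNA of this pair was not tested. HSPA6, which is induced by severe stress, was dim on both arrays (-2.36 and -2.73, a difference of -0.37). HSPA2 was at -0.83 and HSPA1L at -0.80. HSPA12A (0.12) and HSPA5 (0.12) had the only positive values, and HSPA12B was detected on neither array.

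**Figure D3:**
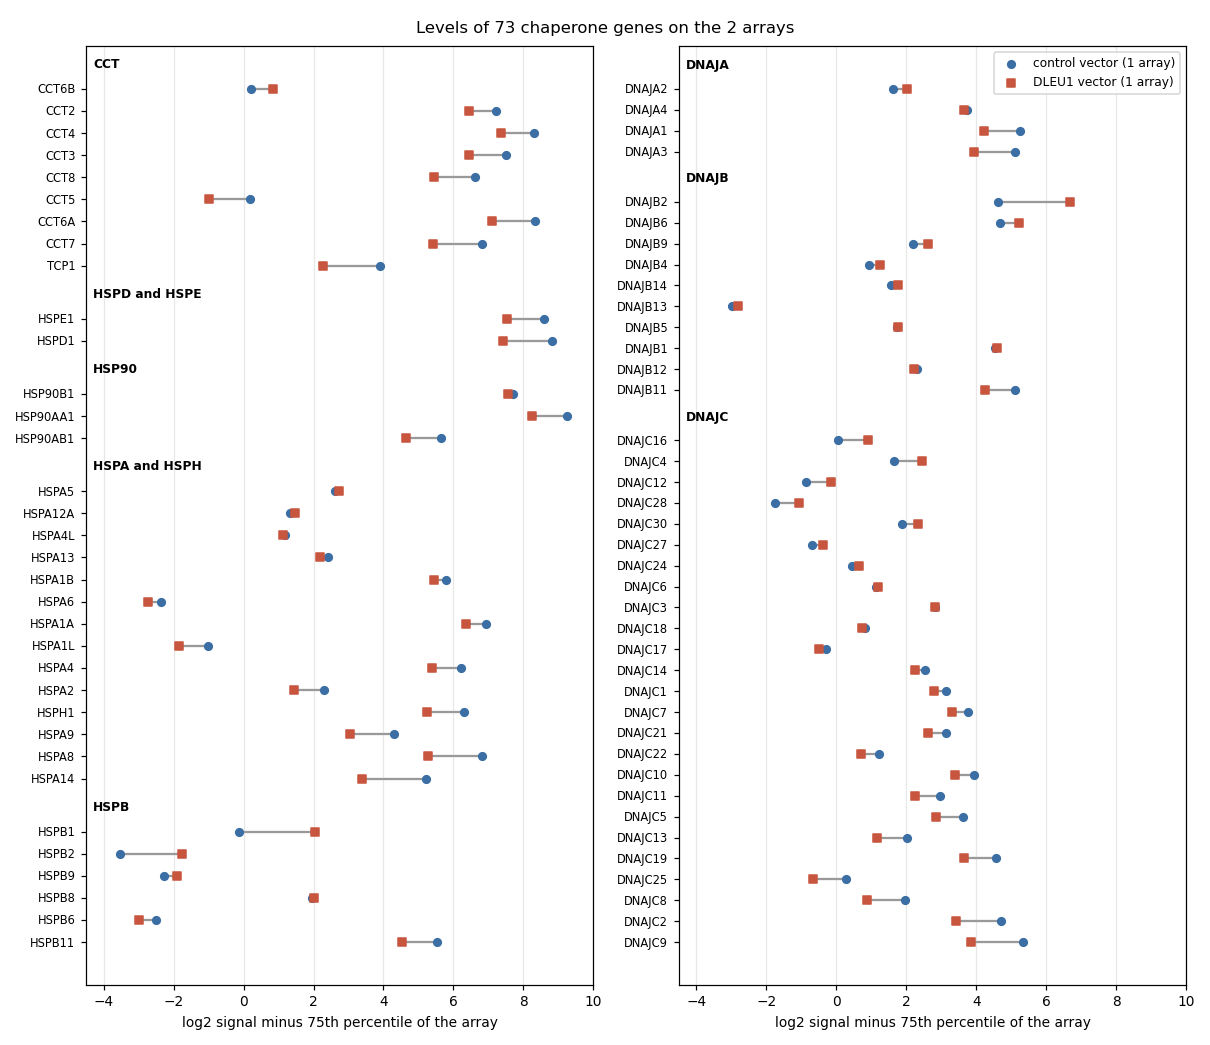
Log2 signal minus the 75th percentile of the array (x axis) for 73 chaperone genes, grouped by protein class and ordered by difference, with a circle for the control vector array, a square for the DLEU1 vector array and a grey line between them. The squares lie left of the circles for 49 genes, and the longest lines to the right belong to HSPB1, DNAJB2 and HSPB2.

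ER chaperones did not reach 2-fold in the main setting, beside 9.78% lower and 9.18% higher among all gene names. For so few genes that count is near those shares. It also depended on the scaling, as DNAJB11 was at -1.26 with the spike-in probes set equal. HSPA5 (BiP), the HSP70 of the ER, went from 2.62 to 2.74 (0.12) and turned negative with the spike-in probes set equal (-0.28). DNAJB9 (ERdj4) was at 0.42, DNAJC3 (P58IPK) at -0.01, DNAJC10 (ERdj5), which reduces disulfide bonds, at -0.55, and DNAJB11 (ERdj3), a cofactor of BiP, at -0.86 (5.10 to 4.23). DNAJC25 had the lowest value of these chaperones (-0.93). All 9 ER chaperones were detected on both arrays, 7 had a negative difference, and the median was -0.22. Of 24 further ER folding and stress genes, all detected on both arrays, SDF2L1 (-1.18), a partner of ERdj3, was the only one past 2-fold, ERN1 (IRE1), a sensor of unfolded proteins, had the highest value (0.45), and the median was -0.14. With quantile or loess scaling 0 of these genes were past 2-fold. The stress transcription factors ATF4 (0.00), XBP1 (-0.06) and DDIT3 (-0.09) were near 0.

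Promoter sequences are shown for HSF1-type and ER-type chaperones because they carry the elements that the 2 stress pathways read. The windows were those of RefSeq (GRCh38.p14), from 250 bases before to 50 bases after each transcript start, and 74 of the 83 genes matched, with 96 windows. A heat shock element pair, GAANNTTC or TTCNNGAA, was found on either strand in 27 (28.1%) of these windows and in 13.5% of all 35116 windows. A triplet, in which 3 alternating GAA and TTC blocks follow each other with 2 bases between them and which contains overlapping pairs, was searched on both strands after the pair results had been seen. It was found in 7 (7.29%) of the chaperone windows and in 0.49% of all windows. The 7 genes were HSPA8, HSPD1, DNAJA1, HSP90AB1, HSP90AA1, HSPA6 and DNAJB6. The windows of HSPA8 (bases -55 to -43 from the transcript start) and HSP90AB1 (-112 to -100) held another triplet outside the stretch printed below. The HSPA6 window held another pair outside it (-180 to -173). Stretches of 5 of these promoters are printed in lower case with the elements in capitals, HSP90AA1 with a further pair after the triplet.
HSPA8, chr11:123062347-123062376, minus strand: gggcgagcttGAAAGTTCCAGAAcgctgcg
HSP90AA1, chr14:102087105-102087134, minus strand: tcTTCCGGAAGGTTCgggaggcTTCTGGAA
HSP90AB1, chr6:44247768-44247797, plus strand: ggggagcaggTTCTGGAAGATTCatgggct
HSPA6, chr1:161524440-161524519, plus strand: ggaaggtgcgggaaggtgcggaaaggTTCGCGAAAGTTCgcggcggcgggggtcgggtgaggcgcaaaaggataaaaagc
DNAJB6, chr7:157336854-157336933, plus strand: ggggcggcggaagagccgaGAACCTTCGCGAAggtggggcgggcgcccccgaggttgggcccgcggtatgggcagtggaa

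The genes of these promoters did not all differ alike. HSPA8, HSPD1, DNAJA1, HSP90AB1 and HSP90AA1 were at least 2-fold lower, HSPA6 was at -0.37 and DNAJB6 was at 0.54. With loess, quantile or detected-probe scaling 2 of the 7 genes were at least 2-fold lower, HSPA8 and HSPD1. Of all gene names 8.16%, 8.64% and 7.78% were at least 2-fold lower under these scalings. The median of the 7 genes was -1.02, against -0.32 for the 60 chaperone genes detected on both arrays whose windows held no triplet. Of the 7 genes 6 were among the brightest 25% of gene names, where the chaperone median was -1.00, and the part of brightness in this contrast was not tested. For pairs the medians were -0.51 (23 genes with, 7 of them lower and 1 higher) and -0.36 (44 genes without, 10 lower and 1 higher). Among all gene names 9.78% were at least 2-fold lower and 9.18% at least 2-fold higher. Among the 73 chaperone genes these shares were 26.0% and 4.11%. HSPB3 and DNAJC15, detected with the DLEU1 vector only, and DNAJB7, detected on neither array, also had a pair and are outside the pair counts. Among the 23 genes HSPB1 was the higher one, and its pair stands in capitals in the next sequence.
HSPB1, chr7:76302453-76302532, plus strand: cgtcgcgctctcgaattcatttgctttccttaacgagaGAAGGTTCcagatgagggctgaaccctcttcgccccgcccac

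The ER stress element, CCAAT and CCACG with 9 bases between them, was searched on both strands. It was found in 2 (2.08%) chaperone windows and in 0.0769% of all windows. The 2 genes were HSPA5 (0.12) and HSP90B1 (-0.13), neither of which reached 2-fold. HSP90B1 carries 1 copy on each strand. The element is in capitals.
HSPA5, chr9:125241364-125241433, minus strand: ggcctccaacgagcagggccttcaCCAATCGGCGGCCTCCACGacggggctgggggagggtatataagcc
HSP90B1, chr12:103930200-103930349, plus strand: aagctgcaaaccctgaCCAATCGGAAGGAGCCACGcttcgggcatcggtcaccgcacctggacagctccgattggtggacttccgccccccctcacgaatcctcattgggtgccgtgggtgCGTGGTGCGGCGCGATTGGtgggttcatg
These matches describe letters in the windows only, and binding of a factor was not measured on these arrays.

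Of 15 textbook targets of HSF1 among the chaperones, 7 were at least 2-fold lower, 1 (HSPB1) was higher, and the median was -0.56, beside 9.78% lower and 9.18% higher among all gene names. With loess, quantile or detected-probe scaling the lower count was 2 (HSPA8 and HSPD1), beside 8.16%, 8.64% and 7.78% of all gene names. DNAJB1 (HSP40), one of the most heat-inducible targets, went from 4.54 to 4.58 (0.04), and its sign turned with the spike-in probes set equal (-0.36). HSF1 itself was at -0.21 and HSF2 at -0.39. HSF4, a heat shock factor known from the lens, was dim and went from -2.45 to -0.84 (1.61).

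The J-domain proteins were mixed. DNAJA1, a main cytosolic partner of HSPA8, went from 5.23 to 4.21 (-1.03), whereas DNAJA2 was at 0.38 and DNAJA4 at -0.08. DNAJC9, a J-domain protein that also chaperones histones, went from 5.32 to 3.84, a difference of -1.48. Its 10 spots ranged from 5.23 to 5.39 on the control vector array and from 3.79 to 3.90 on the DLEU1 vector array, without overlap. DNAJC8, a protein found with splicing factors, went from 1.95 to 0.87 (-1.08). Of the 25 DNAJC genes detected on both arrays 17 had a negative difference, and the highest value was that of DNAJC16 (0.05 to 0.90, a difference of 0.84). DNAJC4 was at 0.80, with 1.22 on a dimmer probe.

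DNAJB2 (HSJ1), a J-domain protein that also binds ubiquitin chains, was the one DNAJ gene that was 2-fold higher. It went from 4.62 to 6.67 (2.05, or 4.14-fold), and a dimmer probe gave 2.37. Of the other 9 DNAJB genes detected on both arrays the lowest was DNAJB11 (-0.86), and none was past 2-fold. The probes of DNAJB6, which suppresses protein aggregation, went both ways, from -0.26 to 0.54, as did those of DNAJB5, from -0.49 to 0.04. DNAJB3, DNAJB7, DNAJB8, DNAJC5B and DNAJC5G were detected on neither array.

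**Figure D4:**
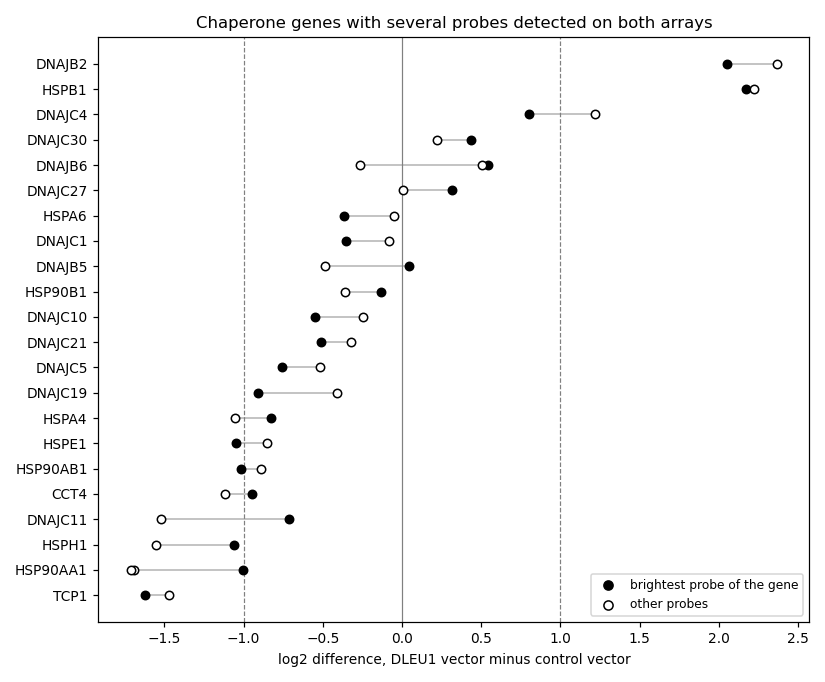
Log2 differences (DLEU1 vector minus control vector, x axis) of every probe detected on both arrays for the 22 chaperone genes with several such probes. Filled circles are the brightest probe of a gene, open circles its other probes and dashed lines 2-fold, and the probes went one way in 20 genes and both ways in DNAJB5 and DNAJB6.

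Of the 6 small heat shock proteins detected on both arrays 2 were at least 2-fold higher, beside 9.18% of all gene names. They were 2 of the 3 higher chaperone genes. HSPB1 (HSP27), which is abundant in stratified epithelia, went from -0.14 to 2.03, a difference of 2.17 or 4.50-fold. A second probe gave 2.22. The remaining one was dimmer (-4.10 and -1.44) and detected with the DLEU1 vector only, with a bound of 6.28-fold higher in the main setting. HSPB2, known from muscle, was dim on both arrays and went from -3.52 to -1.76 (1.76). With the normexp background correction the HSPB2 difference was 0.75, below 2-fold. HSPB3, which forms a complex with HSPB2 in muscle, was detected with the DLEU1 vector only. Its signal was -3.90 with the control vector, not well above background, and 1.05 with the DLEU1 vector. The measured difference was 4.96, or 31.0-fold. With the normexp background correction the measured HSPB3 difference was smaller (2.70), so 31.0-fold is not a lower limit.

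The other small heat shock proteins were not called at 2-fold in the main setting. HSPB8, which directs misfolded proteins to autophagy together with BAG3, went from 1.97 to 2.02 (0.05), and BAG3 was at -0.10. HSPB9 was at 0.38 and HSPB6 at -0.51. HSPB11 went from 5.52 to 4.53 (-0.99) and was past 2-fold in 5 of 13 settings. It is now named IFT25 and is a subunit of intraflagellar transport, so its name is older than its known role. HSPB7 was detected on neither array.

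Heat shock factors and cochaperones outside these families were read from a separate list of 30 genes, all detected on both arrays, with a median of -0.47. Of these 30 genes 10 were at least 2-fold lower and 1, HSF4 (1.61), was 2-fold higher, beside 9.78% and 9.18% of all gene names. The lower genes were CACYBP (-1.47), the cyclophilin PPID (-1.29), the immunophilin FKBP4 (-1.25), CHORDC1 (-1.22), TOMM34 (-1.18), PTGES3 (p23, -1.15), AHSA1 (-1.15), which stimulates the ATPase of HSP90, NUDC (-1.14), BAG2 (-1.05) and STIP1 (HOP, -1.04), which links HSP70 to HSP90. With loess 5 of the 27 genes were lower and 1 was higher. Other cofactors of HSP90 in the list did not pass 2-fold, namely FKBP5 (-0.56), SUGT1 (-0.41), CDC37 (-0.40), CDC37L1 (0.24), UNC45A (0.40) and AHSA2 (0.85). The ubiquitin ligase STUB1 was at -0.20. Prefoldin, the complex that hands actin and tubulin to the CCT ring, was read from a list of its subunits and CCT cofactors. Of the 9 genes of that list detected on both arrays, VBP1 (-1.43) and PFDN2 (-1.00) were at least 2-fold lower, beside 9.78% of all gene names. None was 2-fold higher, and the median was -0.57. PDCL had the highest value of the list (0.52).

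**Figure D5:**
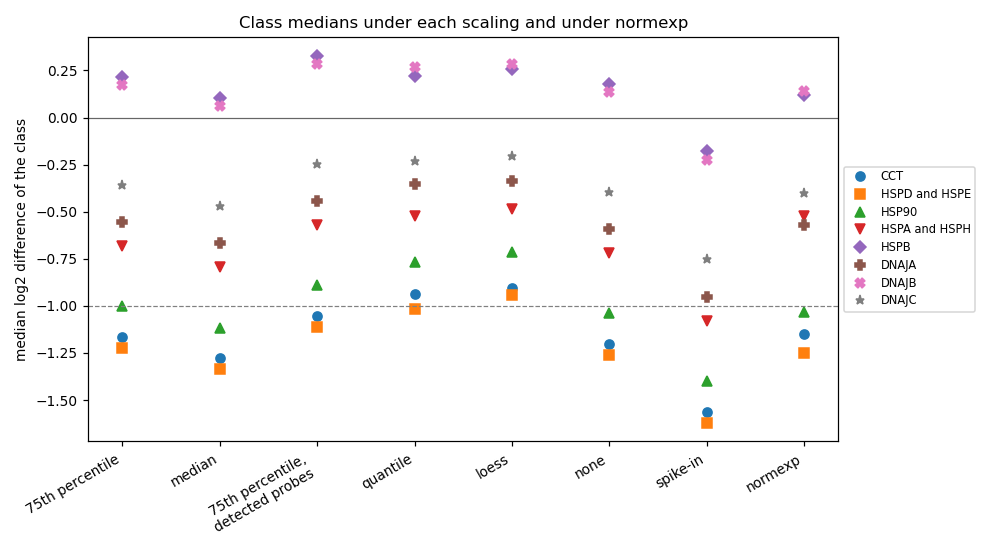
Median log2 difference (DLEU1 vector minus control vector, y axis) of each protein class under 7 scalings between the arrays and under the normexp background correction, with a symbol for each class. The CCT medians range from -1.56 to -0.90, and the HSPB and DNAJB medians are above 0 except with the spike-in probes set equal.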

How the data were processed

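The authors extracted total RNA from Ca9-22 cells, labelled it with Cy3 and hybridised it to SurePrint G3 Human GE v3 arrays, 1 per group. The deposited intensity of each spot was made by the authors with Agilent's Feature Extraction software, version 10.7.3.1. Per the file headers it removed local background and spatial trends and replaced the dimmest spots by a surrogate. The authors' series values held the same intensity, rounded (at most 0.497% apart). Neither was normalized between arrays. Probe positions in the files are hg19, the RefSeq promoter windows GRCh38.p14, and the 2 builds were not combined. On the arrays 47.6% and 48.1% of 58201 probes were well above background, and 0 spots were saturated.

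From 60901 non-control spots per array, log2 of the processed signal was averaged over the spots of a probe without outlier spots, and the 75th percentile of the array was subtracted. A gene was read by the brightest of its probes that were detected on both arrays, and 2-fold was called. A probe detected on 1 array only was given as a bound. Its reference was the probe's own signal on the other array, or the lowest signal detected there where that was larger. For HSPB3 the own signal was larger, so its bound was the measured ratio. Such bounds hold for the background correction of the main setting only, as the HSPB3 difference was smaller with normexp. The 83 chaperone genes had 118 probes, of which 97 were detected on both arrays; 82 names matched a current symbol and HSPB11 an older one. TCP1 was kept although the name ends in P and a digit, and HSP90AA1 and HSP90AB1 were kept although 2 letters precede the digit. Of the genes, 9 matched no promoter window by name.

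The members, gene lists and motifs were chosen with earlier results of these data known. Named were DLEU1, the chaperones called at 2-fold or with a bound of 2-fold, the extremes of each class, all CCT genes and main members of each family; of other lists, the extremes and the called genes. Other genes named were chosen after their values were seen. With 1 array per group there is no test. Alternatives were 6 other scalings (median, 75th percentile over detected probes, quantile, loess with span 0.3, none, 8 spike-in probes set equal), normexp with offset 50, the series values, dim probes kept, a minimum signal of 100, averaging a gene's probes, leaving out the damaged strip (its borders were set after seeing the data), and thresholds of 1.5-fold and 3-fold. The computation was tested on simulated data. Python 3.11.15, numpy 2.4.6, pandas 2.3.3, statsmodels 0.14.6, R 4.3.3 and limma 3.58.1 were used.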

Additional observations from a re-analysis of the deposited data

How the results depend on the processing

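The count of chaperone genes at least 2-fold lower was 19, and it was between 18 and 23 with median scaling, no scaling, normexp, the series values, dim probes kept, a minimum signal of 100, averaging a gene's probes and the damaged strip left out. It was 12 (16.4%, against 7.78% of all gene names) when the 75th percentile was taken over detected probes. With quantiles it was 11 (15.1%, against 8.64%), and with loess 9 (12.3%, against 8.16%). With the spike-in probes set equal it was 31 (42.5%, against 21.4%). At 1.5-fold it was 31 (42.5%, against 22.0%). At 3-fold it was 2 (2.74%, against 3.31%), and 4.11% of the chaperones were higher, against 3.82%. The count of higher genes was 3, and became 5 without the filter on dim probes, 4 when a gene's probes were averaged, 2 with normexp, 2 with a minimum signal of 100 and 8 at 1.5-fold. Higher genes made up 13.6% of the called chaperones, and 25% with loess. The median of the chaperones (-0.45) was -0.56 under median scaling, -0.34 when detected probes gave the 75th percentile, -0.34 for quantiles, -0.29 for loess, -0.85 for the spike-in probes and -0.27 without the filter. The CCT median (-1.16) was -1.28, -1.05, -0.94, -0.90 and -1.56 with the first 5 of these settings. The cause of these shifts was not tested. Relative to the main setting, the median of all gene names moved by -0.11 under median scaling, 0.11 when detected probes gave the 75th percentile, 0.11 without the filter and -0.40 with the spike-in probes. CCT7, TCP1, DNAJC2, DNAJC9, HSPA8, HSPA9, HSPA14 and HSPD1 were 2-fold lower, and DNAJB2 and HSPB1 2-fold higher, in the main setting and all 12 alternatives that kept the threshold. No called gene changed sign in them, whereas of the named genes below 2-fold, DNAJA2, DNAJB1, HSP90B1 and HSPA5 did. None of the alternatives adjusted for the lower spots around the HSPD1 probe (median -0.52 over 49 spots), which lies outside the damaged strip. Without the damaged strip CCT3 had no value. HSPB11 was 2-fold lower in 5 of 13 settings, among them the one without the strip (-1.01) and the spike-in probes set equal (-1.39).

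No paired analysis was possible because each group had 1 array. With 1 array per group, a block for slide and scan cannot be fitted, and no array was left out. For the dim genes HSPB2 (1.76, or 0.75 with normexp) and HSPB3 (4.96, or 2.70 with normexp) the difference moved with the background correction. The normexp value of HSPB3 and the list and triplet counts under other scalings were added after seeing the data.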

Other observations

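Alpha-crystallins are small heat shock proteins that do not carry the HSPB name, and they were looked up after the HSPB values had been seen. CRYAB, whose gene is the neighbour of HSPB2 on chromosome 11, was higher with the DLEU1 vector (-1.20 to 1.11, a difference of 2.32). The CRYAB probe lies at chr11:111779576-111779635 on the minus strand and the HSPB2 probe at chr11:111784741-111784800 on the plus strand (hg19). CRYAA, known from the lens, was at -0.30.

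Of 8 pseudogene and antisense names that resemble the chaperone names but were left out, 4 were detected on both arrays. HSP90AA2P, a pseudogene close in sequence to HSP90AA1, was lower (7.26 to 5.36, a difference of -1.90), and DNAJA1P5 was at -0.86. The antisense genes DNAJC3-AS1 (0.59) and DNAJC27-AS1 (0.48) were positive, beside -0.01 for DNAJC3 and 0.32 for DNAJC27. Cross-hybridisation of the pseudogene probes with the parent mRNA was not tested.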
